A study of Homo sapiens with 27 samples.

Results

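The data described here are the response of SHP77 cells to 2 independent small interfering RNAs (siRNAs) against NKX2-1, compared with a control siRNA. SHP77 is an established, neuroendocrine small cell lung cancer line. The comparison uses 7 of the series' 27 samples: 3 si-control libraries, 2 libraries of NKX2-1 siRNA 1 and 2 of NKX2-1 siRNA 2. All 7 are of unmodified SHP77 cells as far as the labels say, transfected with siRNA by RNAiMAX for 72 h, followed by RNA sequencing with a kit that selects polyadenylated RNA and does not mark the strand. The 4 libraries of 2 SOX2 siRNAs, made in the same way, entered the fit for the estimate of spread and serve as another knockdown for contrast. The series was built around circRMST, a circular RNA that the study describes as bound by SOX2 and NKX2-1, and the siRNAs were used to find the genes downstream of either factor. The gene binding data of the series were not analysed here. Described were the genes whose normalized count averaged 50 or more across the 11 siRNA libraries, 12930 of 34742 human genes listed. The study calls its replicates biological, but the labels do not say whether they came from separate cultures, so the p-values measure the spread between these libraries. 

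NKX2-1, also called TTF-1, is a homeodomain transcription factor that specifies lung, thyroid and ventral forebrain during development. In the adult lung it maintains alveolar and airway identity and drives surfactant genes, and in lung adenocarcinoma its loss is accompanied by gastric and intestinal genes. It is a common diagnostic marker of small cell lung cancer, where it is expressed together with the stem cell factor SOX2 and the pioneer factors FOXA1 and FOXA2.

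The 7 libraries held 15486858 to 50098747 reads assigned to genes, the deepest being the second replicate of NKX2-1 siRNA 1. All values below are the deposited normalized read counts, which carry the scaling of each library but not of gene length, so levels are compared between libraries and not between genes. The labelled line was checked against markers: all 8 neuroendocrine markers examined were above the limit, their summed level being 72331 to 73533 in si-control and 73117 to 78842 with the NKX2-1 siRNAs. Of 10 fibroblast markers, 3 (LUM, PDGFRA and FAP) were above the limit, with COL1A2, COL3A1 and PDGFRB near 0, and the list summed to 518 to 596 and 368 to 568. Of 14 blood and endothelial markers only PECAM1 was above it, KDR and CD3D were at 0 and PTPRC near 0, and the list summed to 385 to 407 and 187 to 511. In bulk RNA of this kind, fewer cells of a type and less RNA per cell cannot be told apart.

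Both siRNAs lowered the NKX2-1 transcript (chr14:36516397-36520232, GRCh38). Its normalized counts were 2199, 2357 and 2145 in si-control, 959 and 1070.0 with siRNA 1 and 836 and 796 with siRNA 2. Every knockdown library lay below every control library, and the mean of both siRNAs was 2.45-fold lower (log2 change -1.29, SE 0.05, adjusted p = 1.26e-17, limma on the log2 scale with Benjamini-Hochberg adjustment over all 16750 genes tested). The decrease was larger with siRNA 2, at -1.45 against -1.14, and this difference itself passed the test (adjusted p = 5.79e-04), so a sizeable share of the transcript, 1014 and 816 of a control mean of 2234 ± 110.0 (SD, n = 3), remained in either case. SFTA3, a non-coding gene that overlaps NKX2-1 on the same chromosome (chr14:36473288-36519556), had low counts of 71.1, 51.2 and 42.3 in si-control, 48.1 and 60.1 with siRNA 1 and 48.5 and 50.6 with siRNA 2, with overlapping groups. Since the library kit does not mark strand, reads in the shared stretch cannot be assigned to either gene with certainty.

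The genes around NKX2-1 on chromosome 14 were examined within 1 Mb on either side. PAX9, a paired-box factor whose gene lies next to NKX2-1 and NKX2-8, had counts of 1215, 1172 and 1140.3 in si-control, 957 and 968 with siRNA 1 and 857 and 745 with siRNA 2. All 4 knockdown libraries were below all 3 controls, and PAX9 fell with each siRNA alone (log2 change -0.42, SE 0.05, adjusted p = 3.27e-07). RALGAPA1, a subunit of a Ral GTPase activator, was lower on average (log2 change -0.17, SE 0.04, adjusted p = 0.0018) and with siRNA 1, at -0.26, while the -0.07 with siRNA 2 did not pass (adjusted p = 0.30). MBIP averaged 968, 986 and 807 in the 3 groups and narrowly missed the threshold (adjusted p = 0.0527). INSM2, BRMS1L, SLC25A21 and MIPOL1 did not pass either, their log2 differences lying between -0.12 and 0.11. NKX2-8, a paralogue of NKX2-1, was below the limit for description, with 15 reads in the control libraries together and 73 in the 4 knockdown libraries together.

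Across the 12930 genes, 2780 (21.5%) were higher and 3297 (25.5%) lower at an adjusted p below 0.05 on the average of both siRNAs. Most of these differences were small: the median size of a called change was 1.21-fold, and 86.8% were below 1.5-fold. At least 1.5-fold changes numbered 352 up and 449 down, at least 2-fold changes 56 up and 111 down, and at least 4-fold changes 0 up and 15 down. With each siRNA alone in the same direction, 1390 genes (10.8%) were higher and 1596 (12.3%) lower, and these included 55 of the 56 and 109 of the 111 genes past 2-fold. All 4 knockdown libraries lay above all 3 controls for 2303 genes (17.8%) and below for 2632 (20.4%). Genes lower after knockdown made up 13.4% of the lowest of 4 equal groups of genes by control count and 34.0% of the highest. The share that was higher ranged only from 20.1% to 23.2%. Genes were reported by their mean over all siRNA libraries but grouped by control mean, which went down to 17.6 in the lowest group. That group thus holds some genes reported only because other libraries were higher than the controls, which favours rises over falls there. The part of this choice in the shares was not tested. The split of all reported genes depended on the scaling. With libraries scaled to equal totals, 3836 genes were higher and 2376 lower, the median of all genes moving by 0.0584 on the log2 scale.

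**Figure D1:**
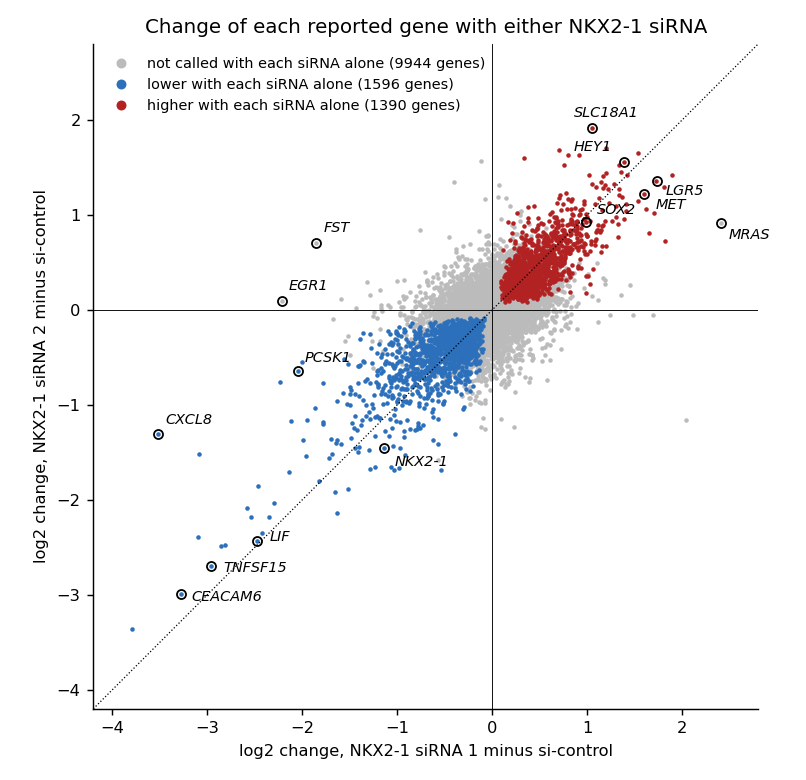
Log2 change of the 12930 reported genes with NKX2-1 siRNA 1 (x axis) and NKX2-1 siRNA 2 (y axis), each against the same 3 si-control libraries, with 1390 genes higher (red) and 1596 lower (blue) with each siRNA alone. CEACAM6, TNFSF15 and LIF lie near the dotted line of equal change at the lower left, while EGR1 and FST lie far left of it.

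All 13 mRNAs encoded by the mitochondrial genome, which make subunits of the respiratory chain and ATP synthase, were lower, 10 of them with each siRNA alone, with a median log2 change of -0.48 against -0.01 over all reported genes, though with quantile normalization, which forces one distribution on all libraries, 6 of the 13 were called lower and 3 higher. MT-ND4, a complex I subunit, had 377270.1, 360282 and 372396 in si-control, 236468 and 234453 with siRNA 1 and 282689 and 247245 with siRNA 2, without overlap (log2 change -0.57, SE 0.03, adjusted p = 1.53e-13). MT-ND6 fell further (log2 change -0.76, SE 0.06, adjusted p = 1.88e-10), from 31406 ± 614 (SD, n = 3) to 16934 and 20417. Reads on all genes of the mitochondrial genome made up 9.95 to 10.3% of each control library, 7.16 to 7.40% with siRNA 1 and 7.93 to 8.75% with siRNA 2. The part of this shift in the other changes was not tested. Against the SOX2 siRNAs, the median log2 difference of the 13 mRNAs was -0.05, with 3 higher and 3 lower.

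The other lineage factor of the study moved in the opposite direction to NKX2-1. SOX2 (chr3:181711925-181714436), a stem cell and foregut factor, had normalized counts of 1191, 1152 and 1084 in si-control, 2285 and 2242 with siRNA 1 and 2098 and 2252 with siRNA 2. All 4 knockdown libraries were well above the 3 controls (1.94-fold higher, log2 change 0.96, SE 0.05, adjusted p = 1.43e-14). SOX21, a SOX2-related factor, rose by a similar amount, with 193, 177 and 187 in si-control, 363 and 378 with siRNA 1 and 364 and 370.2 with siRNA 2 (log2 change 0.99, SE 0.10, adjusted p = 1.05e-08). Of the lineage transcription factors, 6 fell and 14 rose among 32 reported, and all 14 that rose did so with each siRNA alone. The 14 are 43.8% of the list, where 21.5% of all reported genes were higher on average and 10.8% with each siRNA alone. Those that rose included MYT1L, a neuronal zinc-finger factor (0.73, SE 0.07), NKX2-2, a ventral neural tube and islet factor (0.72, SE 0.11), TCF4 (0.61), LHX2 (0.41) and PROX1 (0.39). MYC was among the 6 that fell (-0.45, SE 0.04, adjusted p = 3.02e-09).

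INSM1, FOXA1, FOXA2 and MYCL differed from the controls by less, in log2, than SOX2 did. INSM1, a zinc-finger factor of neuroendocrine cells, rose with both, from 13169.5, 12934 and 13507 to 17537 and 19049 and to 17292 and 18158 (log2 change 0.45, SE 0.04, adjusted p = 7.24e-10). FOXA1 also rose, its counts being 1921, 1862 and 2008 in si-control, 2707 and 2867 with siRNA 1 and 2329.9 and 2392 with siRNA 2 (log2 change 0.41, SE 0.04, adjusted p = 1.21e-08), with a larger change for siRNA 1 than for siRNA 2 (adjusted p of the difference = 0.0019). FOXA2 averaged 2163, 2299 and 2383 and missed the threshold (adjusted p = 0.0516), as did the Notch ligand DLL3 (adjusted p = 0.30) and MYCL (log2 difference -0.33, adjusted p = 0.068). NEUROD1, a neurogenic factor, averaged 0.47, 0.409 and 1.13 normalized counts in si-control, siRNA 1 and siRNA 2. YAP1, a co-activator that marks non-neuroendocrine cells, was at 0 in si-control and siRNA 2 and averaged 0.881 with siRNA 1. HNF4A, a gut and liver factor below the limit for description, had 8.53 to 25.4 in si-control and 33 to 60.5 in the knockdown libraries.

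The host gene of circRMST stood at the edge of the test. RMST, counted as a gene with no separate count of the circle, had 64.9, 84.1 and 60.6 in si-control, 110.4 and 93.2 with siRNA 1 and 81.2 and 83.9 with siRNA 2, so that both siRNA 2 libraries lay below the highest control. Its average log2 change of 0.40 (SE 0.16) had an adjusted p of 0.0496, passed with siRNA 1 (adjusted p = 0.025) and did not with siRNA 2 (adjusted p = 0.34). It missed the threshold in 11 of 18 alternative settings, among them each of edgeR and DESeq2. BCL2, the founding anti-apoptotic gene of its family, was slightly lower, at 1267, 1259 and 1242 in si-control, 1152 and 1012 with siRNA 1 and 1126 and 1137 with siRNA 2 (log2 change -0.18, SE 0.05, adjusted p = 0.0034). In the BCL2 family, 4 rose (26.7%) and 3 fell (20%) among 15 reported, close to the 21.5% and 25.5% of all reported genes. Those higher were BAK1 (0.28), BCL2L11 (0.26), BMF and BAD, BAD losing its call in 8 of 18 alternative settings. Those lower were BID (-0.30), BCL2 and BCL2L2.

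**Figure D2:**
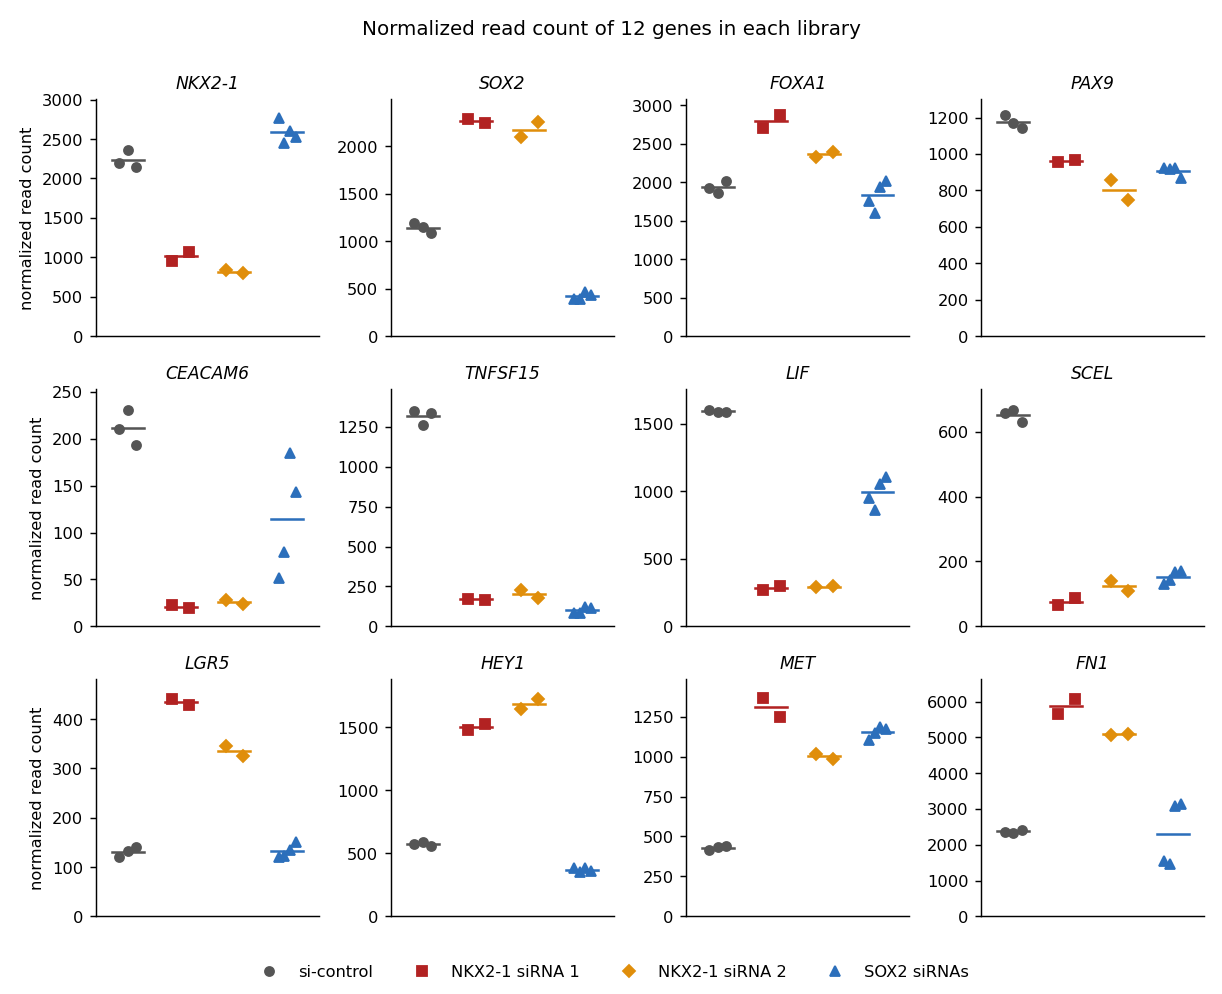
Normalized read count (linear axes from 0) of 12 genes in each library of si-control (circles), NKX2-1 siRNA 1 (squares), NKX2-1 siRNA 2 (diamonds) and the SOX2 siRNAs (triangles), with a line at each group mean. SOX2 is above the controls in all 4 NKX2-1 knockdown libraries, and CEACAM6, TNFSF15, LIF and SCEL are far below the controls in all 4.

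The genes with the largest changes were taken among those called with each siRNA and without overlap between groups, so their separation is part of the choice. The largest decreases included several genes of secreted and surface proteins. CEACAM6 (chr19:41755530-41772211), a carcinoembryonic antigen family adhesion protein of lung epithelium, had 211, 230.3 and 193 in si-control, 22.7 and 19.2 with siRNA 1 and 28.2 and 23.4 with siRNA 2, 8.77-fold lower (log2 change -3.13, SE 0.17, adjusted p = 1.95e-14). Its paralogue CEACAM5 on the same chromosome, whose reads could in part be shared with it, fell as well, from 1008 to 325 and 388 on average (log2 change -1.50, SE 0.07, adjusted p = 1.38e-15). TNFSF15, a TNF-family cytokine, had 1353, 1260.1 and 1336 in si-control, 169.9 and 167 with siRNA 1 and 225 and 180.2 with siRNA 2 (7.11-fold lower, log2 change -2.83, SE 0.09, adjusted p = 1.84e-19). SCEL, sciellin, a protein of the cornified envelope, had 659, 667 and 630.0 in si-control, 64.2 and 87.9 with siRNA 1 and 139.8 and 109 with siRNA 2, and its decrease was larger with siRNA 1 (adjusted p of the difference = 5.15e-04). In each of these 4 genes the groups were far apart, the highest knockdown library lying below the lowest control by more than the spread within either group.

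LIF, an interleukin-6 family cytokine, gave one of the most even responses. It had 1607, 1590.3 and 1588 in si-control, 271 and 300.1 with siRNA 1 and 287 and 301 with siRNA 2, 5.49-fold lower (log2 change -2.46, SE 0.06, adjusted p = 3.42e-22), and the difference between siRNAs did not pass (adjusted p = 0.72). CXCL8, the neutrophil chemokine interleukin-8, was lowered by both but unevenly, with 2382, 2256 and 2468 in si-control, 191 and 222 with siRNA 1 and 893 and 1019 with siRNA 2. F2RL3, the thrombin receptor PAR4, had 2727, 2739 and 2761 in si-control, 456 and 459 with siRNA 1 and 655 and 638 with siRNA 2 (log2 change -2.33, SE 0.05, adjusted p = 8.76e-23). The other large decreases were in TREM1, a receptor of myeloid cells (from 188 to 34.3 and 36), CPAMD8, a complement-related protein (from 502 to 85.3 and 109.9), PAEP, or glycodelin (from 177 to 19.8 and 60.7), CALB2, or calretinin (from 136 to 27.4 and 32.6), and TNFRSF9, or 4-1BB (from 439 to 79.1 and 121). LILRP1, annotated as a pseudogene of the leukocyte immunoglobulin-like receptor family, went from 299 to 57.9 and 66, and its count is uncertain because that family shares sequence. These 5 coding genes and the pseudogene changed by log2 -2.39 to -2.16 with no overlap between groups.

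**Figure D3:**
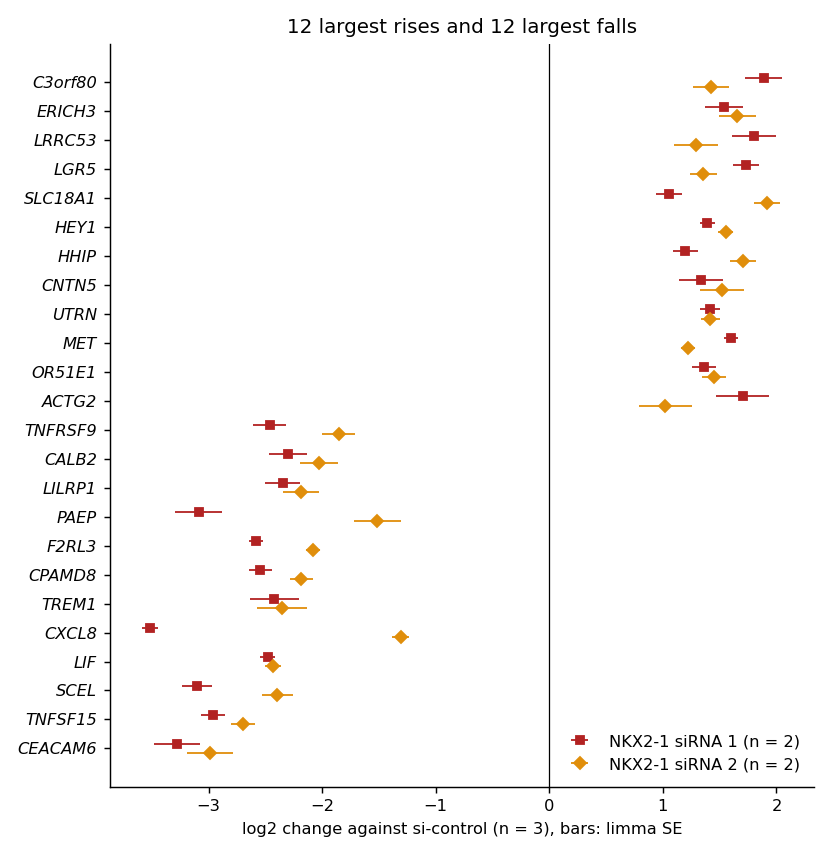
Log2 change against si-control (n = 3) of the 12 top rises and 12 top falls among genes called with each siRNA, for NKX2-1 siRNA 1 (squares, n = 2) and siRNA 2 (diamonds, n = 2), with limma standard errors. The siRNAs lie closest for UTRN and LIF and lie furthest apart for CXCL8, PAEP and SLC18A1.

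The largest increases were smaller in log2 than the largest decreases. LGR5, the R-spondin receptor that marks intestinal stem cells, had 119.8, 132 and 141 in si-control, 442 and 429 with siRNA 1 and 346 and 326 with siRNA 2 (2.91-fold higher, log2 change 1.54, SE 0.10, adjusted p = 5.72e-13). HEY1, a transcriptional repressor induced by Notch, had 573, 586 and 559.6 in si-control, 1479 and 1529 with siRNA 1 and 1647 and 1723 with siRNA 2 (2.78-fold higher, log2 change 1.47, SE 0.06, adjusted p = 1.16e-17). MET, the hepatocyte growth factor receptor, had 414, 434 and 441 in si-control, 1366 and 1250.3 with siRNA 1 and 1014 and 987 with siRNA 2, more with siRNA 1 than with siRNA 2 (adjusted p of the difference = 8.41e-05). UTRN, the dystrophin homologue utrophin, was even between siRNAs, with 313, 289 and 333 in si-control, 855 and 809 with siRNA 1 and 841 and 826 with siRNA 2 (log2 change 1.42, SE 0.07, adjusted p = 7.27e-15).

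SLC18A1, a vesicular monoamine transporter of neuroendocrine cells, rose more with siRNA 2, its counts being 172, 163 and 155 in si-control, 325 and 356 with siRNA 1 and 605 and 633 with siRNA 2. HHIP, the Hedgehog-interacting protein, went from 140.3 to 323 and 461, and CNTN5, a neural contactin, from 49.4 to 127 and 144. OR51E1, an olfactory receptor gene found in neuroendocrine tumours, went from 264 to 678 and 722. ERICH3 and LRRC53, neighbours on chromosome 1 (chr1:74568123-74674343 and chr1:74469376-74537079), rose together, ERICH3 from 53.5 to 156 and 169.7 and LRRC53 from 45.6 to 160.5 and 113. C3orf80, an uncharacterised gene, had the largest log2 change among the rises called with each siRNA (log2 change 1.66, SE 0.14, adjusted p = 1.26e-10), from counts of only 62.4, 73.1 and 49.3 in the controls. ACTG2, a smooth muscle actin whose sequence is close to other actins, went from 36.4 to 120.0 and 75. 

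Besides the mitochondrial mRNAs, the 6 coding genes of highest control count that changed at least 1.5-fold were VGF, CALCA, PCSK1, HSP90AA1, YBX1 and INHBA. VGF, a neuropeptide precursor, had 100933, 100111 and 101102 in si-control, 34157 and 37405 with siRNA 1 and 54239 and 54504 with siRNA 2 (log2 change -1.19, SE 0.04, adjusted p = 5.71e-19). PCSK1, the prohormone convertase that cleaves such precursors, had 45112, 44832 and 44799.8 in si-control, 11162 and 10569 with siRNA 1 and 28523 and 28911 with siRNA 2 (log2 change -1.35, SE 0.03, adjusted p = 3.43e-23). CALCA, the calcitonin and CGRP gene, had 61494, 60762 and 61974 in si-control, 20737 and 22118 with siRNA 1 and 42025 and 40492 with siRNA 2 (log2 change -1.05, SE 0.03, adjusted p = 1.14e-20). All 3 fell with each siRNA and further with siRNA 1 than with siRNA 2 (adjusted p of the difference 9.16e-10 or less). INHBA, the activin A subunit, behaved alike (from 12591 to 5607 and 8956, log2 -0.83, SE 0.03). HSP90AA1, the inducible HSP90 chaperone, rose from 36050.1 to 57444 and 65714 (log2 change 0.77, SE 0.04, adjusted p = 1.04e-15), and YBX1, an RNA-binding cold-shock protein, from 15262 to 22107 and 24199 (log2 change 0.60, SE 0.03, adjusted p = 1.86e-16).

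NKX2-1 is known to bind DNA at a CAAG core, preferably followed by TG, so the promoter windows of the called genes were searched for these letters. The windows, from RefSeq on GRCh38.p14, run from 250 bases before to 50 bases after a gene's first listed start, and 9990 reported genes matched by symbol. CAAG on either strand occurred in 81.0% of these windows, in 79.9% of the 2124 of genes that were higher and in 80.5% of the 2574 of genes that were lower. The longer CAAGTG, which contains the first motif, occurred in 8.45%, 8.14% and 9.36%, and TCAAGTG, which contains both, in 1.74%, 1.41% and 1.71%. Among genes past 2-fold, CAAGTG was found in 8 of 41 windows of rising genes and in 6 of 73 of falling ones. Over all 27305 genes of the promoter table the shares were 86.2%, 11.5% and 2.56%. These matches describe letters and not bound sites.

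The 250 bases before the start are shown for SOX2, the other factor, and for 2 large falls and 2 large rises. These were the largest whose listed window lies before the gene's annotated extent. Genes on the chromosome that carries SLC18A1 and HEY1, and on another chromosome, were left out beforehand. SLC18A1 and HEY1 rose more than HHIP and are not shown for that reason. Sequences run 5′ to 3′ on the gene's own strand, with each CAAG, or CTTG for the other strand, in capitals. The windows lie at chr3:181711675-181711924, plus strand, for SOX2, at chr19:41755280-41755529, plus strand, for CEACAM6, at chr13:77535456-77535705, plus strand, for SCEL, at chr3:160225172-160225421, plus strand, for C3orf80, and at chr4:144645906-144646155, plus strand, for HHIP.
SOX2: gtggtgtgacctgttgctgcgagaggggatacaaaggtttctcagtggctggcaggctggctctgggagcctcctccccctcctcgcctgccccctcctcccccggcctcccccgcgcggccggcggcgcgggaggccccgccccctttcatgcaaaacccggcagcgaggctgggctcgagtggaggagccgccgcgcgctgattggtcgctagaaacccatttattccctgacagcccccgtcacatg
CEACAM6: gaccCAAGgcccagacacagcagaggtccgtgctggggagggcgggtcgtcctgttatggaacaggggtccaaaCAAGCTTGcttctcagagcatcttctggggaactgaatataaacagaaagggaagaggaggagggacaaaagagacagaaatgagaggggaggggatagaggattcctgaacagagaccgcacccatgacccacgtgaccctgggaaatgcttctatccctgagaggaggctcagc
SCEL: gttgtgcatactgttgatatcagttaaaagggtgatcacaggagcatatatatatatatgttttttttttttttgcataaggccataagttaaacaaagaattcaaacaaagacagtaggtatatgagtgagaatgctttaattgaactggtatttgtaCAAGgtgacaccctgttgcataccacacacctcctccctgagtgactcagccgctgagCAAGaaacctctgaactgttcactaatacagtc
C3orf80: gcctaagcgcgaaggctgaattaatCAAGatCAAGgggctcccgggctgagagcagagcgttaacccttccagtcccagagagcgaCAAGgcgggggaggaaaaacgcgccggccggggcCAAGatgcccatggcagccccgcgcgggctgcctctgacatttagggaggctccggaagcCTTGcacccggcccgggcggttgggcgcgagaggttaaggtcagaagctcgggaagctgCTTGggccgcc
HHIP: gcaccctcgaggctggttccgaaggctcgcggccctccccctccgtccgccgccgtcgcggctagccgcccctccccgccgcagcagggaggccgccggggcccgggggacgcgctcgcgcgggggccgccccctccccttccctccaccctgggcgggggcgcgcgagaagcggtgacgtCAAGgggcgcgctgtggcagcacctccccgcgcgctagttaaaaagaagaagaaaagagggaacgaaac
The core was matched 6 times in the C3orf80 window, 3 times in that of CEACAM6, 2 times in that of SCEL, 1 time in that of HHIP and 0 times in that of SOX2, and CAAGTG in none of the 5.

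Of 30 genes that NKX2-1 is known to drive in lung, 9 were above the limit of 50 normalized counts. Of these 1 was higher (11.1%) and 5 were lower (55.6%), with a median log2 change of -0.29. Over all reported genes, 21.5% were higher and 25.5% lower. Besides CEACAM6, ROR1, an orphan receptor tyrosine kinase described as an NKX2-1 target in lung cancer, had 253, 271 and 237 in si-control, 154 and 157 with siRNA 1 and 190.5 and 170.3 with siRNA 2 (log2 change -0.59, SE 0.11, adjusted p = 1.14e-04). CPM, a carboxypeptidase of lung epithelium, fell by a like amount (log2 change -0.59, SE 0.09, adjusted p = 2.72e-06), and LPCAT1, an enzyme of surfactant lipid synthesis, by less (log2 change -0.29, SE 0.04, adjusted p = 4.12e-07). MUC1, a mucin, had 135, 112 and 125 in si-control, 119 and 136 with siRNA 1 and 69.9 and 80.2 with siRNA 2, low with siRNA 2 only, and ABCA3, the surfactant lipid transporter, was the 1 that rose (log2 change 0.11, SE 0.04, adjusted p = 0.045), though past the threshold with siRNA 1 only and not on average without any 1 si-control library, without replicate 2 of siRNA 1 or without either siRNA 2 library. Of 15 thyroid genes none was above the limit. 

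Of the gastric, intestinal and hepatic genes, 1 rose and 4 fell among 7 reported. Over all reported genes, 21.5% were higher and 25.5% lower, beside which this list and the ventral forebrain list below stand. PDX1, a pancreas and duodenum factor, was the one that rose, with 267, 290.0 and 238 in si-control, 497 and 494 with siRNA 1 and 431 and 391 with siRNA 2 (log2 change 0.77, SE 0.08, adjusted p = 1.39e-08). Lower on average were VIL1 (-0.595), the intestinal factor CDX2 (-0.25) and TFF3, a trefoil peptide (-0.17). However, none of the 4 that fell passed with each siRNA alone, and without replicate 1 of siRNA 2 or with equal library totals 2 genes fell. Of the ventral forebrain genes, which mark another domain of NKX2-1, 6 rose and 2 fell among 15 reported, with a median of 0.15, and the number that rose went from 6 to 3 without si-control replicate 2 or without replicate 1 of siRNA 1, while the number that fell went from 2 to 1 without any 1 of the 7 libraries. DLX1, a homeobox factor of the ventral forebrain, had 246, 247 and 241 in si-control, 398 and 392 with siRNA 1 and 337 and 353 with siRNA 2 (log2 change 0.59, SE 0.07, adjusted p = 2.35e-07), and LHX6, an interneuron factor downstream of NKX2-1 in brain, fell on average (log2 change -0.35, SE 0.14, adjusted p = 0.0484) but with neither siRNA alone.

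Neuroendocrine markers moved both ways: 12 rose and 12 fell among 40 reported, 30% each. Over all reported genes, 21.5% were higher and 25.5% lower. With each siRNA alone, 8 of the markers rose and 7 fell, beside 10.8% and 12.3% of all reported genes. Besides SLC18A1 and INSM1, those that rose included STMN1, a microtubule regulator (0.72), and the surface proteins SEZ6L (0.56) and SEZ6 (0.48). Those that fell included, besides VGF and PCSK1, the chaperone of a convertase SCG5 (-0.39), the granule protein CHGB (-0.27) and the carboxypeptidase CPE (-0.21). The granule protein CHGA averaged 9678, 10291 and 11769, and the vesicle protein SYP 1385, 1228 and 1410.3. Of the peptide genes, 2 rose (16.7%) and 6 fell (50%) among 12 reported. NTS, neurotensin, had 2064, 2078 and 2096 in si-control, 851 and 767 with siRNA 1 and 1717 and 1796 with siRNA 2, lowest with siRNA 1. CALCB fell (-0.52, SE 0.04), and ADCYAP1, which encodes the neuropeptide PACAP, rose with both siRNAs (0.45, SE 0.04). CALCA and CALCB are close relatives, so their reads could in part be shared.

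**Figure D4:**
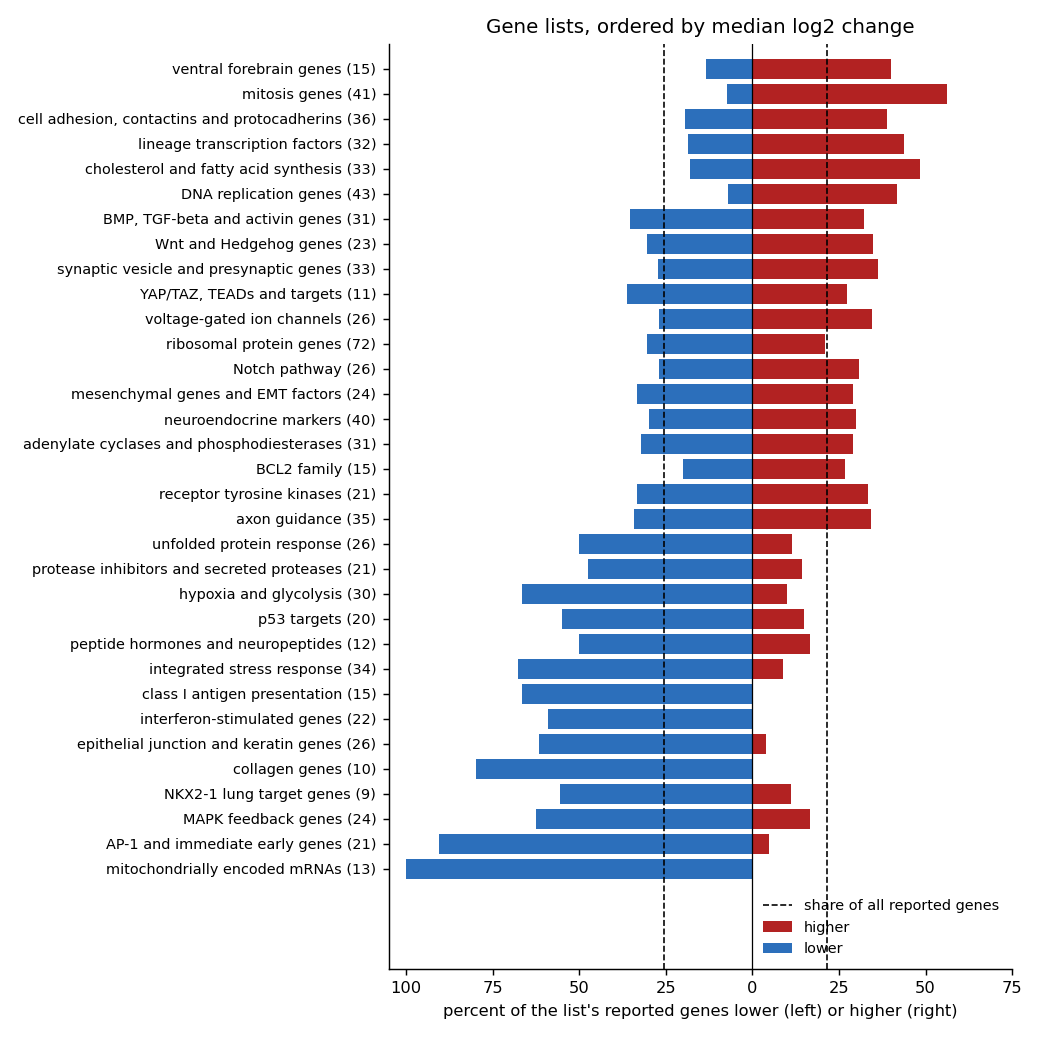
Percent of each list's reported genes (number in brackets) that were lower (left, blue) or higher (right, red) with the NKX2-1 siRNAs, for lists with at least 9 reported genes, ordered by their median log2 change and dashed lines at the shares of all reported genes, 25.5% and 21.5%. The mitochondrial and immediate early lists extend furthest to the left and the mitosis list furthest to the right.

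Genes that report growth factor signalling were more often lower than higher. Of the immediate early and AP-1 genes, which respond within minutes to such signals, 1 rose and 19 fell among 21 reported, with a median of -0.37, and 11 fell with each siRNA alone, where 25.5% of all reported genes were lower on average and 12.3% with each alone. As a list they stood at a similar level with the SOX2 siRNAs (median log2 difference 0.03). ARC, an activity-regulated cytoskeletal gene, had 945, 1026 and 987 in si-control, 222 and 276 with siRNA 1 and 357 and 405 with siRNA 2 (log2 change -1.68, SE 0.08, adjusted p = 1.44e-15). ATF3, a stress-induced factor, fell from 842 to 418 and 479.7 (-0.91, SE 0.07), IER3 from 1735 to 762 and 1352, and the RNA-decay factor ZFP36 changed by -0.71 (SE 0.08). NR4A2, an orphan nuclear receptor, was the single member that rose (0.25). Of the MAPK feedback genes, 4 rose and 15 fell among 24 reported, the median being -0.32. LIF and EGR1 are in this list, and the phosphatases that switch MAP kinases off were among the decreases: DUSP8 (-1.14, SE 0.13), DUSP1 (-0.77), DUSP5 (-0.71) and DUSP4 (-0.60). CCND1, cyclin D1, changed by -0.70 (SE 0.06, adjusted p = 3.40e-10), while the inhibitors SPRY1 (0.34) and SPRY2 (0.21) rose.

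The receptors upstream of this pathway went both ways: 7 rose and 7 fell among 21 reported (33.3% each, beside 21.5% and 25.5% of all reported genes). PDGFRA rose with MET, from 59.9, 48.7 and 55 to 142 and 142 with siRNA 1 and 121 and 129.6 with siRNA 2 (log2 change 1.28, SE 0.12, adjusted p = 1.65e-09), while FGFR4 (-0.58), IGF1R (-0.36) and EGFR (-0.29) were lower. In cyclic AMP signalling, 9 rose and 10 fell among 31 reported, and the largest were decreases. PDE1C, a calcium-dependent phosphodiesterase, had 1932, 1906 and 1837 in si-control, 624 and 579 with siRNA 1 and 497 and 499.8 with siRNA 2 (log2 change -1.79, SE 0.05, adjusted p = 9.39e-20). CREB5, a CREB-family factor, had 1539, 1481 and 1466 in si-control, 478 and 440.3 with siRNA 1 and 578 and 584 with siRNA 2 (log2 change -1.53, SE 0.05, adjusted p = 5.71e-19). ADCY5, an adenylate cyclase, went from 92 to 44.1 and 42, and PDE3A rose (0.64, SE 0.06).

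In the Notch pathway, which restrains neuroendocrine fate, 8 rose (30.8%) and 7 fell (26.9%) among 26 reported. Of all reported genes, 21.5% were higher and 25.5% lower. Its effectors, taken one by one, split. HEY1 rose as described, whereas HES7 had 467, 449.7 and 457 in si-control, 188 and 200.3 with siRNA 1 and 196 and 169 with siRNA 2 (log2 change -1.28, SE 0.09, adjusted p = 4.23e-12), and HEY2 (-0.89, SE 0.09) and the feedback inhibitor NRARP (-0.72, SE 0.05) fell with both siRNAs. HES1, the usual readout, changed by -0.37 (SE 0.09). Among ligands, JAG1 (0.24), DLL1 (0.18) and DLK1 (0.42) were higher and DLL4 (-0.47) and JAG2 (-0.21) lower, and RBPJ, the DNA-binding partner of Notch, was higher (0.71, SE 0.05). In the Wnt and Hedgehog list, 8 rose and 7 fell among 23 reported. The ligands WNT4 (from 247 to 132 and 109.9, log2 -1.03) and WNT9A (from 462 to 239.6 and 231, log2 -0.97) fell while LGR5 and HHIP rose, and the common readout AXIN2 did not pass (log2 difference -0.15, adjusted p = 0.11).

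Among BMP, TGF-beta and activin genes, 10 rose (32.3%) and 11 fell (35.5%) among 31 reported, beside 21.5% and 25.5% of all reported genes. GDF15, a stress-induced member, had 4982, 4887 and 5049 in si-control, 2121 and 2433 with siRNA 1 and 2856 and 2877 with siRNA 2 (log2 change -0.96, SE 0.05, adjusted p = 7.79e-15). INHBE fell by a similar factor (log2 change -0.89, SE 0.05, adjusted p = 2.96e-14), and TGFBR2, a receptor, went from 276 to 134 and 116 (log2 change -1.15, SE 0.10, adjusted p = 5.19e-10). Of the ID genes, targets of BMP, ID4 (0.50), ID2 (0.37) and ID1 (0.20) were higher on average. In the YAP and TEAD list, 3 rose and 4 fell among 11 reported, CRIM1 with the largest change (-0.75, SE 0.09).

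Epithelial genes were also more often lower, where 25.5% of all reported genes were lower on average. Of the junction and keratin genes, 1 rose and 16 fell among 26 reported, with a median of -0.27, and 12 fell with each siRNA alone. KRT80, a keratin, had 633, 580.1 and 607 in si-control, 312 and 328 with siRNA 1 and 206 and 212 with siRNA 2 (log2 change -1.23, SE 0.08, adjusted p = 1.14e-12). JUP, or plakoglobin, a protein of desmosomes and adherens junctions, had 4708, 4867 and 4631 in si-control, 2805 and 3119 with siRNA 1 and 2427 and 2620.1 with siRNA 2 (log2 change -0.79, SE 0.04, adjusted p = 2.80e-14). The tight junction protein TJP3 (-1.01), the protease inhibitor SPINT1 (-0.83) and the keratins KRT18 (-0.66) and KRT8 (-0.47) were lower too, and CLDN15, a claudin, was the member that rose (0.69, SE 0.12), joined by 1 more gene without replicate 2 of siRNA 2. EPCAM did not pass (log2 difference -0.05, adjusted p = 0.29).

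Of the mesenchymal genes, 7 rose and 8 fell among 24 reported, where 21.5% of all reported genes were higher and 25.5% lower. FN1, fibronectin, rose from 2359.9, 2342 and 2426 to 5666 and 6079 with siRNA 1 and 5072 and 5102 with siRNA 2 (log2 change 1.20, SE 0.04, adjusted p = 1.02e-19). LOXL2, a collagen cross-linking enzyme, had 388, 422 and 374 in si-control, 159 and 139.8 with siRNA 1 and 141 and 148 with siRNA 2 (log2 change -1.42, SE 0.09, adjusted p = 2.36e-13). Of 10 reported collagen genes 8 were lower and none higher (1 higher without replicate 1 of siRNA 1), led by COL12A1 (log2 change -1.09, SE 0.09, adjusted p = 2.58e-10) and COL4A2 (log2 change -0.82, SE 0.07, adjusted p = 8.27e-11). Of the proteases and their inhibitors, 3 rose and 10 fell among 21 reported. PLAU, or urokinase, had 377, 336 and 357 in si-control, 131 and 121 with siRNA 1 and 172 and 181 with siRNA 2, and ADAMTS9, a matrix protease, rose from 161 to 258 and 508.

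Of the neuronal adhesion genes, 14 rose and 7 fell among 36 reported, with a median of 0.12. Of all reported genes, 21.5% were higher and 25.5% lower, beside which the counts of this and the next lists stand. CNTNAP2, a neurexin-family protein, had 503, 501 and 554 in si-control, 1190.1 and 1138 with siRNA 1 and 1349 and 1406 with siRNA 2 (log2 change 1.29, SE 0.05, adjusted p = 3.02e-17). CDH8, a cadherin, had 285, 236 and 247 in si-control, 593 and 545 with siRNA 1 and 475 and 468 with siRNA 2 (log2 change 1.02, SE 0.08, adjusted p = 3.81e-11). PCDH8 (1.00), LRRN3 (0.80) and NCAM2 (0.56) rose with them, and NRCAM (-0.27) and L1CAM (-0.20) fell. Of the synaptic vesicle genes, 12 rose and 9 fell among 33 reported, with SV2B (0.46) and SYNGR3 (0.55) higher and the glutamate transporter SLC17A7 lower (-0.90, SE 0.16). Of the axon guidance genes, 12 rose and 12 fell among 35 reported. The ephrin EFNA1 had 1109, 1178 and 1116 in si-control, 578 and 634 with siRNA 1 and 619 and 652 with siRNA 2, the Eph receptor EPHB1 changed by -1.08 (SE 0.19), and EPHA5 (0.71) and ROBO2 (0.64) were higher. Of the voltage-gated channels, 9 rose and 7 fell among 26 reported, with the potassium channel KCNQ5 (-0.86) and the sodium channel SCN9A (-0.71) lower and the calcium channel CACNA1A higher (0.66), the 9 being 5 without si-control replicate 2.

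Stress and interferon genes were more often lower than higher, where 25.5% of all reported genes were lower and 21.5% higher. Of the integrated stress response genes, which follow the factor ATF4, 3 rose and 23 fell among 34 reported, with a median of -0.21, among them CHAC1, a glutathione-degrading enzyme (from 1397 to 735 and 828, log2 -0.84), and PPP1R15A, a phosphatase subunit (from 1743 to 1169 and 1161, log2 -0.58). Of the interferon-stimulated genes 0 were higher and 13 of 22 lower, such as ISG20, an exonuclease (from 738 to 438 and 474, log2 -0.70), and IFITM3 (log2 -0.54). Of the class I presentation genes 0 were higher and 10 of 15 lower, including the peptide transporter subunits TAP1 (-0.48) and TAP2 (-0.51), while B2M, the invariant light chain, did not pass (adjusted p = 0.059). With equal library totals 1 interferon-stimulated gene was higher and 11 lower.

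Of the hypoxia and glycolysis genes, 3 rose and 20 fell among 30 reported, where 25.5% of all reported genes were lower. HK2, a hexokinase, had 378, 418 and 427 in si-control, 158 and 162 with siRNA 1 and 211 and 276 with siRNA 2 (log2 change -1.05, SE 0.10, adjusted p = 9.42e-10), and LDHA, lactate dehydrogenase, changed by -0.36 (SE 0.03). Of the unfolded protein response genes, 3 rose and 13 fell on average among 26 reported. Their median was -0.30 with siRNA 1 but 0.05 with siRNA 2, and only 6 fell with each siRNA alone. PDIA4, a disulfide isomerase, was one that rose, from 4904 to 7909 and 9195 (log2 change 0.80, SE 0.03, adjusted p = 1.04e-17) while the chaperone HSPA5 fell (-0.31, SE 0.03). Of the p53 targets, 3 rose and 11 fell among 20 reported, CDKN1A being higher (0.31) and MDM2 lower (-0.19). Only 4 p53 targets fell with each siRNA alone. With equal library totals 7 p53 targets fell.

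Cell cycle and lipid genes leaned the other way, by small amounts. Of the mitosis genes, 23 rose and 3 fell among 41 reported, with a median of 0.14, where 21.5% of all reported genes were higher. With each siRNA alone, 13 rose, where 10.8% of all reported genes did. Of the DNA replication genes, 18 rose and 3 fell among 43 reported, with a median of 0.07, the 3 being 1 without si-control replicate 2 or without replicate 2 of siRNA 2. Only 8 replication genes rose with each siRNA alone, and their list median was 0.128 with siRNA 1 and 0.007 with siRNA 2. E2F2, a factor of S-phase entry, had 933, 1047 and 959.8 in si-control, 1943 and 1915 with siRNA 1 and 1464 and 1487 with siRNA 2 (log2 change 0.78, SE 0.05, adjusted p = 1.29e-13). KIF11, a spindle motor, had 2224, 2175 and 2104 in si-control, 2997 and 2683 with siRNA 1 and 2866 and 2721 with siRNA 2 (log2 change 0.38, SE 0.04, adjusted p = 3.06e-08). ANLN, which acts in cytokinesis, was an exception (-0.35, SE 0.04). Of the cholesterol and fatty acid genes, 16 rose and 6 fell among 33 reported, with FASN, fatty acid synthase, going from 15770.4 to 20531 and 19587 (log2 0.35) and INSIG1, a sterol sensor, from 2452 to 2981 and 3633 (log2 0.42). Of the ribosomal protein genes, whose reads can be shared with processed pseudogenes, 15 rose and 22 fell among 72 reported, and this balance turned with equal library totals, to 28 higher and 11 lower.

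The siRNAs differed from each other in part of the response. A direct test of siRNA 1 against siRNA 2 called 1877 genes (14.5%) higher and 2416 (18.7%) lower with siRNA 1, and 297 genes were called in opposite directions against si-control. EGR1, the immediate early zinc-finger factor, was at 2529.6, 2423 and 2527 in si-control, at 522 and 549.5 with siRNA 1 and at 2751 and 2585 with siRNA 2 (adjusted p against si-control = 2.13e-20 and 0.25). FST, follistatin, an inhibitor of activin, went in opposite directions, from 1391, 1383 and 1333 to 366 and 391 with siRNA 1 and to 2242 and 2237 with siRNA 2 (log2 -1.85 and 0.71). EMC7, a subunit of a membrane protein insertion complex, was 2204, 2113 and 2065 in si-control, 697 and 708 with siRNA 1 and 2307 and 2312 with siRNA 2 (adjusted p of the difference = 6.84e-19). These genes and CXCL8 had the largest negative differences of genes with a symbol, together with the non-coding CFAP58-DT, at 48.7, 71.9 and 64.8 against 46.2 and 45.8 and 172 and 143.

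Higher with siRNA 1 than with siRNA 2 were SST, somatostatin, with 17.5, 17.1 and 29.6 in si-control, 84 and 92.4 with siRNA 1 and 6.76 and 11.1 with siRNA 2, and 4 further genes. SMAD6, an inhibitory SMAD, had 109, 67 and 84.6 in si-control, 238 and 242 with siRNA 1 and 78.9 and 85.2 with siRNA 2, and NACAD 37.4, 36.6 and 43.7 in si-control, 130.2 and 126 with siRNA 1 and 32.7 and 43.2 with siRNA 2. Both were high with siRNA 1, and their siRNA 2 libraries lay within or next to the control range. MRAS, a Ras-family GTPase, had 49.9, 37.8 and 36.6 in si-control, 229 and 216 with siRNA 1 and 80.0 and 76.5 with siRNA 2. CSF1, a macrophage growth factor, had 99.8, 116 and 109.9 in si-control, 127 and 128 with siRNA 1 and 45.1 and 45.7 with siRNA 2, below the controls with siRNA 2. PECAM1, the one endothelial marker above the limit, went from 333 to 134 and 409 with siRNA 1 and siRNA 2. By list, the difference was one-sided for the unfolded protein response (median -0.35). Of its 26 genes, 25 were lower with siRNA 1 than with siRNA 2 and none higher. Immediate early genes leaned the same way, with 15 of 21 lower and 3 higher (median -0.39). So did others, such as ribosomal protein genes (42 of 72 lower, 2 higher), hypoxia and glycolysis genes (17 of 30 and 1) and mitochondrial mRNAs (10 of 13 and 0). Over all reported genes, 18.7% were lower and 14.5% higher with siRNA 1. Replication genes were 24 of 43 higher and 2 lower with siRNA 1.

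**Figure D5:**
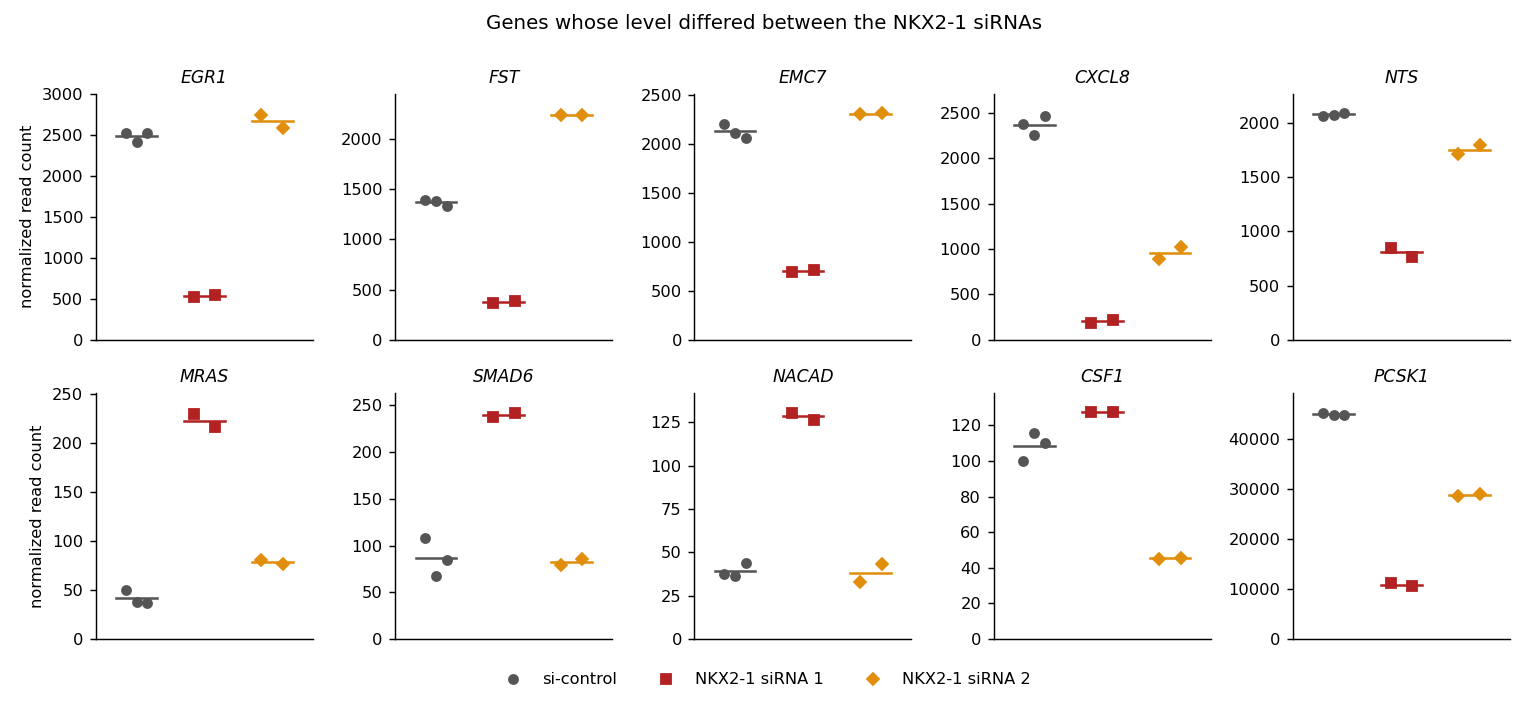
Normalized read count (linear axes from 0) of 10 genes in the 3 si-control libraries (circles), 2 NKX2-1 siRNA 1 libraries (squares) and 2 NKX2-1 siRNA 2 libraries (diamonds), with a line at each group mean. EGR1 and EMC7 are low with siRNA 1 only, FST is below the controls with siRNA 1 and above them with siRNA 2, and MRAS, SMAD6 and NACAD are high with siRNA 1.

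Against the SOX2 knockdown, tested directly between the 4 NKX2-1 and the 4 SOX2 siRNA libraries, 3948 genes (30.5%) were higher and 4312 (33.3%) lower with the NKX2-1 siRNAs. SOX2 and NKX2-1 are the targets themselves. NKX2-1 had 2764, 2446, 2608 and 2531 in the 4 SOX2 libraries. Both knockdowns share the 3 si-control libraries, so their values against control are given side by side only. Several of the leading genes separated the knockdowns. LIF had 954, 863, 1052 and 1107 in the SOX2 libraries against at most 301 with NKX2-1 siRNA (log2 difference -1.77, adjusted p = 2.79e-20), F2RL3 had 2636, 2169, 2338 and 2358, and CPAMD8 432, 404, 532 and 533, the latter near its control values of 492, 523 and 490.5. HEY1 was 380.1, 351, 387 and 358 in the SOX2 libraries, below the controls (log2 difference 2.11), and LGR5 120.3, 122, 135 and 152, at the control level (log2 difference 1.53, adjusted p = 5.02e-14). TNFSF15, in contrast, was low in both, at 85.4, 83.8, 120.3 and 113 with the SOX2 siRNAs, and MET was raised in both, at 1102, 1149, 1184 and 1174, its difference being -0.01 (SE 0.05, adjusted p = 0.87).

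The largest differences from the SOX2 knockdown lay mostly in genes whose SOX2 siRNA libraries stood far from the controls. GP2, a pancreatic and intestinal surface glycoprotein, had 75.4, 53, 87.6 and 80.5 in those and 1103, 1063 and 1026 in si-control, 1118 and 1161 with siRNA 1 and 1382 and 1451 with siRNA 2. A2M, a protease inhibitor, had 45.6, 49.3, 40.9 and 61.7 there and 573, 596 and 617 in si-control, 335 and 366 with siRNA 1 and 1075 and 1055 with siRNA 2. MRAS, SERPINA5 and TMPRSS3 were at 13.5 or less in every SOX2 library, with a 0 for MRAS and SERPINA5, and their NKX2-1 means were 223 and 78.3, 90.2 and 153, and 80.4 and 99.3. CALB2 went in opposite directions, from 121, 134 and 152 in si-control to 34 and 20.9 with NKX2-1 siRNA 1, to 28.2 and 37 with NKX2-1 siRNA 2 and to 466, 485, 792 and 768 with the SOX2 siRNAs (log2 difference -4.33, adjusted p = 2.73e-20). CAP2, EYA1, SHROOM2 and LILRP1 were the others far lower with NKX2-1 siRNA, EYA1 being 31.2, 28 and 38.1 in si-control, 32.1 and 32.3 with siRNA 1 and 39.5 and 25.9 with siRNA 2 against 241, 261, 188 and 170.5 with the SOX2 siRNAs. By list, all 15 class I genes were higher with NKX2-1 siRNA than with SOX2 siRNA, and 18 of 22 interferon-stimulated genes were higher and 1 lower. Of the mitosis genes, 35 of 41 were lower and none higher. Over all reported genes, 30.5% were higher and 33.3% lower in this contrast. Some other lists that fell against si-control were, as lists, about as low with the SOX2 siRNAs. Their median log2 difference was 0.03 for immediate early genes (7 higher, 5 lower) and -0.05 for mitochondrial mRNAs (3 and 3). It was -0.01 for hypoxia and glycolysis genes (6 and 9) and -0.03 for collagens (4 and 4). Further lists that fell against si-control stood apart from the SOX2 siRNAs. Their median difference was 0.21 for integrated stress response genes (21 higher, 2 lower) and 0.36 for proteases and their inhibitors (16 and 0). For the NKX2-1 lung target genes it was -0.43 (4 and 5).

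The circRMST knockdown of the same series, short hairpin RNAs (shRNAs) in SHP77 with an shGFP control, used lentiviral infection, puromycin selection at 3 ug/ml and a total RNA kit that marks strand. It thus differs from the siRNA libraries in treatment and library type and was normalized as another table, so its values stand beside these without a test. NKX2-1 had 1419 and 1485 with shGFP, 881 and 1005 with circRMST shRNA 1, and 1385 and 1166 with circRMST shRNA 2. SOX2 had 1997 and 2229 with shGFP, 2236 and 2408 with circRMST shRNA 1, and 2639 and 2723 with circRMST shRNA 2. SCEL, which fell with NKX2-1 siRNA, had 203 and 227 with shGFP, 1723 and 1532 with circRMST shRNA 1, and 946 and 869 with circRMST shRNA 2. GDF15 had 234 and 192 with shGFP, 2002 and 1653 with circRMST shRNA 1, and 836 and 727 with circRMST shRNA 2. Both were thus higher with the circRMST shRNAs than with shGFP and lower with the NKX2-1 siRNAs than with si-control. FN1, which rose with NKX2-1 siRNA, had 3035 and 2954 with shGFP, 478 and 512 with circRMST shRNA 1, and 742 and 776 with circRMST shRNA 2. HEY1 had 362 and 391 with shGFP, 1806 and 1876 with circRMST shRNA 1, and 810.4 and 895 with circRMST shRNA 2, and CXCL8 459 and 429 with shGFP, 108 and 114 with circRMST shRNA 1, and 152 and 167 with circRMST shRNA 2. HEY1 was thus above, and CXCL8 below, its own control in both experiments.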

How the data were processed

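RNA of 11 siRNA libraries of SHP77 cells was sequenced in paired reads, and 7 of them, 3 si-control, 2 NKX2-1 siRNA 1 and 2 NKX2-1 siRNA 2, carry the comparison. Per the submitters' processing notes, cutadapt 2.5, STAR 2.5.2b, DESeq2 and the build hg38 were used. The values are a signal the authors deposited as normalized counts per gene, and dividing them by each library's step gave whole reads for 100% of values (tolerance 0.05 reads). Of 34791 features, 38 non-human ones and 11 pseudoautosomal copies were left out, and symbols matched 77.0% of gene IDs.

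limma 3.58.1 (R 4.3.3) was run on log2(normalized count + 1) over the 16750 genes with a mean of at least 10. All 11 libraries shared 1 estimate of spread, both siRNAs had equal weight, tests were two-sided, and p-values were adjusted by Benjamini-Hochberg with a threshold of 0.05. Changes on this log2 scale are smaller than the true ones where counts are low. Promoters came from a RefSeq table of GRCh38.p14. The script was tested on simulated data.

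The genes described, the 37 gene lists and the named genes were chosen with earlier results of these data known. Named were NKX2-1 and other factors chosen by name, the 12 largest rises and 12 largest falls, up to 4 leading members of each list, the coding genes within 1 Mb of NKX2-1, the 6 coding genes of highest count changed at least 1.5-fold (the annotation table gave no type for mitochondrial genes, so none was among them), and the 5 genes in each direction that differed most between the siRNAs or from the SOX2 siRNAs, 177 genes in all. Other list members were named after their values were seen. Replicate numbers did not pair the libraries. Alternatives were edgeR 4.0.16 and DESeq2 1.42.0 on the recovered reads, other scalings, filters and pseudocounts, a fit with only the compared groups, a replicate block, and leaving out each replicate. The paired reads are not marked by molecule, so counting precision is that of 15486858 to 50098747 reads per library.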

Additional observations from a re-analysis of the deposited data

Results flagged for a closer look

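The NKX2-1 siRNAs were compared with each other by a test of the difference itself, and 4293 of the 12930 reported genes passed it in limma at an adjusted p below 0.05. Of the genes that passed against si-control with siRNA 1 and with siRNA 2, 297 did so in opposite directions, FST being one of them. NKX2-1 itself was lower with siRNA 2 than with siRNA 1, and 1 siRNA 1 library held 50098747 reads. The part of either in these differences was not tested.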

How the results depend on the processing

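The counts of genes higher and lower on average stayed within 1.5 times of 2780 and 3297 in every alternative: 2901 and 3176 with edgeR, 2317 and 2901 with DESeq2, 2041 and 2578 with no filter on low values, 3000 and 2940 with TMM scaling, 3101 and 3022 with quantile normalization, 3836 and 2376 with equal library totals, and 3023 and 3536 with only the compared groups in the fit. Leaving out 1 library at a time gave 2320 to 2525 higher and 2835 to 3124 lower. Same-numbered libraries did not deviate together (correlations of -0.017 to 0.042), and a replicate block gave 2178 higher and 2726 lower. Of the 3186 results of 177 named genes under the alternatives, 3076 kept their side of the threshold, 90 lost it and 20 passed it. No named gene called in the main fit turned direction. For genes not called there, a change of sign was not counted. Calls were lost in 11 alternatives for RMST, 10 for CFAP58-DT, 9 each for CMPK2 and TMPRSS3, 8 each for MUC1 and BAD, and 7 each for CDX2, ZEB2 and ERBB4, and the cause was not tested. With 2 libraries per siRNA, the spread rests on that shared over all groups, though replicates differed unevenly. The chi-square between replicate libraries, divided by its degrees of freedom, was 1.52 to 1.56 in si-control. It was 4.65 with NKX2-1 siRNA 1, 2.13 with NKX2-1 siRNA 2, 5.78 with SOX2 siRNA 1 and 1.58 with SOX2 siRNA 2. This measure also grows with depth, and the effect of unequal spread on the calls was not tested.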

Other observations

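NKX2-8, a neighbour of NKX2-1 below the limit for description, had mean normalized counts of 6.50 in si-control, 12.7 with NKX2-1 siRNA 1 and 16.4 with NKX2-1 siRNA 2, and was not tested.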
